A study of Mus musculus with 10 samples.

Results

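The genes described here belong to 2 lipid signalling systems, those of sphingosine 1-phosphate (S1P) and of lysophosphatidate (LPA). They were taken by symbol from the deposited table, and all 8 of the 8 named genes are among its 18464 genes: the receptors S1pr1, S1pr5 and Lpar1, the lipid phosphatase Plpp3, the S1P phosphatase Sgpp1, the S1P lyase Sgpl1, the sphingosine kinase Sphk2 and the S1P transporter Spns2. The set was chosen by the measured difference between astrocyte fraction and input, in that it was built around S1pr1 as one of the most enriched genes. That difference is therefore given for the 8 genes as a description, with no test.

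Naive Aldh1l1-NuTRAP mice gave the RNA, taken from ventral midbrain that held the substantia nigra (SNpc) and the ventral tegmental area (VTA). In these mice the Aldh1l1 promoter, active in brain mostly in astrocytes, selects the cells that carry a ribosome tag, and TRAP (translating ribosome affinity purification) recovers the tagged ribosomes with their RNA. There were 5 libraries of the astrocyte fraction and 5 of the input, which holds RNA of the mixed cell types before purification, and each of the title numbers 88, 92, 976, 981 and 982 is shared by 1 library of each kind. The strain is common to both groups, and the sources used here give no age, sex or Cre driver. Nothing in the labels says that the numbers are separate animals, so p-values measure the spread between these libraries, which may be technical.

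S1P is made inside cells when a sphingosine kinase phosphorylates sphingosine, the backbone released from ceramide. Transporters carry it out of the cell, where it acts on G protein-coupled receptors. It is removed reversibly by phosphatases that give back sphingosine, or irreversibly by the lyase. LPA is made outside cells largely by the secreted enzyme autotaxin, has receptors of the same superfamily, and is dephosphorylated at the cell surface by lipid phosphate phosphatases. In brain, S1P receptors are known as targets of drugs used in multiple sclerosis, and S1pr5 and Lpar1 are known from oligodendrocytes.

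The libraries fitted their labels by cell type markers, with 2 features that touch results below. All 10 listed astrocyte markers rose in the astrocyte fraction (median log2 fold change 3.04, against -0.06 for the 17672 tested genes), and all 8 neuron, 10 oligodendrocyte, 5 oligodendrocyte precursor, 9 microglia and 4 red blood cell markers fell. Of 10 endothelial markers, 4 fell and 6 were not called, and of 10 mural and fibroblast markers, 2 rose, 7 fell and 1 was not called. Th and Slc6a3, genes of the midbrain dopamine neurons picked after their values were seen, were at 29.5 and 36.4 CPM on average in the astrocyte fraction and at 168 and 247 CPM on average in the input. The astrocyte fraction library 92 was shallow, with 3845554 expected counts. Depth was 24479136 to 26924406 expected counts for the other 4 libraries of that group and 21812193 to 30878894 for the input. Markers of the choroid plexus and ependyma summed to 12360 and 2607 CPM in the astrocyte fraction libraries 976 and 982 and to 76.0 to 110 CPM in the other 3. In the input they summed to 3246 and 698 CPM in libraries 976 and 982 and to 21.0 to 36.4 CPM in the other 3. None of the 6 measured markers of that list was called, and Tmem212 had no count in at least 1 astrocyte fraction library.

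The 8 genes split into 2 strongly enriched genes, 3 mildly enriched genes and 3 depleted genes. S1pr1 and Plpp3 were about 10.5-fold and 8.55-fold higher in the astrocyte fraction than in the input, and Sgpl1, Sgpp1 and Sphk2 were 2.49-fold, 1.40-fold and 1.33-fold higher. Lpar1, Spns2 and S1pr5 were at 29.5%, 14.2% and 9.17% of the input level. All 5 astrocyte fraction libraries lay above all 5 input libraries for 5 of the 8 genes and below them for the other 3. Over the 17672 tested genes, such separation upward was seen in 27.2% and downward in 31.1%. In bulk RNA, fewer cells of a type and less RNA per cell cannot be told apart, nor can a difference between cell types from one between ribosome-bound and total RNA, since the 2 groups differ in both.

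**Figure D1:**
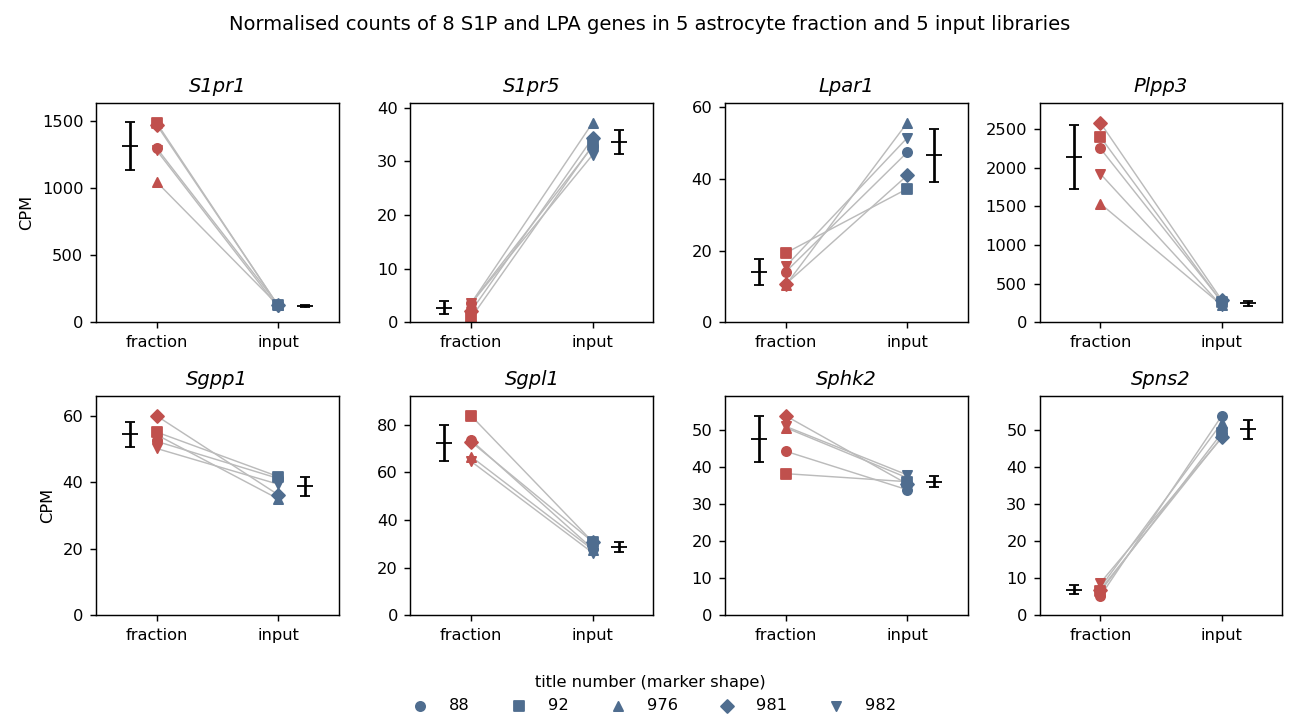
Normalised counts (CPM, counts scaled to the TMM-adjusted library size) of the 8 genes in the 5 astrocyte fraction libraries (red) and the 5 input libraries (blue). Marker shapes give the title number, grey lines join libraries with the same number, black bars are mean and SD, and each panel has its own axis from 0; no panel shows an overlap of the groups, and Sphk2 comes nearest to one.

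S1pr1 encodes an S1P receptor that signals through inhibitory G proteins (ENSMUSG00000045092, mm10 chromosome 3, 115710433 to 115715072, minus strand). It was at 1301, 1489, 1048, 1475 and 1284 CPM in the astrocyte fraction libraries 88, 92, 976, 981 and 982, against 131.5, 126.0, 128.6, 127.3 and 112.0 CPM in the input libraries of the same numbers. The lowest astrocyte fraction library, 976, was thus far above the highest input library. The log2 fold change was 3.40 ± 0.10 (SE), which was the 16th highest value among the 17672 tested genes. By number the difference ran from 3.03 in 976 to 3.56 in 92 on the log2 scale. Without the numbers 976 and 982 it was 3.58. Endothelial cells are known to carry S1pr1 as well, and the 10 endothelial markers had a median log2 fold change of -0.31, with summed levels of 79.2 to 132 CPM in the astrocyte fraction and 134 to 158 CPM in the input. None of these 10 markers was at 0 in an astrocyte fraction library.

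S1pr5 encodes another S1P receptor (ENSMUSG00000045087, chromosome 9, 21242912 to 21248443, minus strand) and was the most depleted of the 8 genes. Its levels were 3.59, 0.880, 3.59, 2.10 and 3.53 CPM in the astrocyte fraction libraries 88, 92, 976, 981 and 982, against 32.8, 33.0, 37.2, 34.3 and 31.2 CPM in the input libraries. The value of the astrocyte fraction library 92 rests on 3 counts, with an exact 95% Poisson interval of 0.182 to 2.57 CPM that covers counting error only. The groups stood well apart, and the log2 fold change was -3.45 ± 0.38 (SE), the 167th lowest of all tested genes. The 10 oligodendrocyte markers lay close to this value, with a median log2 fold change of -3.74. They summed to 1003 to 1419 CPM in the astrocyte fraction and 7090 to 8605 CPM in the input. None of the 10 was at 0, and their part in the S1pr5 difference was not tested.

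Lpar1 encodes an LPA receptor (ENSMUSG00000038668, chromosome 4, 58435255 to 58553898, minus strand). It was at 14.1, 19.4, 10.41, 10.7 and 15.6 CPM in the astrocyte fraction libraries 88, 92, 976, 981 and 982, against 47.4, 37.3, 55.7, 41.0 and 51.5 CPM in the input libraries. It was lower in each number, with no overlap of the groups. The difference was -0.94 on the log2 scale in number 92, which had the highest astrocyte fraction value and the lowest input value, and -2.41 in number 976, where both were reversed. The log2 fold change was -1.76 ± 0.20 (SE). The microglia (-4.29), oligodendrocyte (-3.74), oligodendrocyte precursor (-3.17), red blood cell (-2.62) and neuron (-2.33) marker medians were more depleted. The mural and fibroblast (-1.61) and endothelial (-0.31) marker medians were less depleted, and the part of these cells in the Lpar1 difference was not tested.

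Plpp3 encodes a membrane phosphatase that removes the phosphate from LPA and S1P outside the cell (ENSMUSG00000028517, chromosome 4, 105157347 to 105232764, plus strand). It was at 2251, 2401, 1537, 2583 and 1923 CPM in the astrocyte fraction libraries 88, 92, 976, 981 and 982, against 267, 261, 222, 288 and 213 CPM in the input libraries. Both groups had their 2 lowest values in the numbers 976 and 982, and the differences by number stayed between 2.79 and 3.20 on the log2 scale. The log2 fold change of 3.10 ± 0.16 (SE) was the 123rd highest of all tested genes, next to the astrocyte marker median of 3.04.

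Of the enzymes that break S1P down, Sgpl1 and Sgpp1 were higher in the astrocyte fraction, unlike Sgpp2, described further on. Sgpl1 encodes the lyase that cleaves S1P for good (ENSMUSG00000020097, chromosome 10, 61098642 to 61147703, minus strand). It was at 73.4, 83.6, 66.5, 72.7 and 64.5 CPM in the astrocyte fraction libraries 88, 92, 976, 981 and 982, against 27.9, 30.9, 27.6, 30.9 and 26.2 CPM in the input libraries. Its log2 fold change was 1.32 ± 0.08 (SE), and the differences by number, 1.23 to 1.44, were the closest together of the 8 genes. Sgpp1 encodes a phosphatase of the endoplasmic reticulum that turns S1P back into sphingosine (ENSMUSG00000021054, chromosome 12, 75714249 to 75735729, minus strand). It was at 52.4, 55.2, 54.4, 60.0 and 50.2 CPM in the astrocyte fraction libraries, against 41.2, 41.8, 35.1, 36.3 and 39.5 CPM in the input libraries, with a log2 fold change of 0.49 ± 0.07 (SE). The groups did not overlap, though the shift was small.

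Sphk2 encodes the sphingosine kinase found in the nucleus and mitochondria (ENSMUSG00000057342, chromosome 7, 45709467 to 45718002, minus strand). It was at 44.2, 38.15, 50.5, 53.7 and 50.9 CPM in the astrocyte fraction libraries 88, 92, 976, 981 and 982, against 33.8, 36.0, 37.0, 35.4 and 37.8 CPM in the input libraries. The lowest astrocyte fraction value, in the shallow library 92, exceeded the highest input value by under 1 CPM, and in number 92 the difference was 0.08 on the log2 scale. The log2 fold change was 0.41 ± 0.09 (SE). Of its exon bases, 21.9% are shared with Dbp or Rpl18 on the opposite strand, and the sources used here do not state whether strand was used in counting, which leaves its counts uncertain. Scaled to library totals, which put the median of all genes at -0.34 instead of -0.06, the log2 fold changes were 0.13 for Sphk2 and 0.20 for Sgpp1.

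Spns2 encodes a transporter that exports S1P from cells (ENSMUSG00000040447, chromosome 11, 72451638 to 72489904, minus strand). It was at 5.18, 6.46, 7.54, 6.93 and 8.77 CPM in the astrocyte fraction libraries 88, 92, 976, 981 and 982, against 53.8, 49.2, 51.9, 48.1 and 47.9 CPM in the input libraries. The input values lay within a narrow band, and each was more than 5 times the highest astrocyte fraction value. The log2 fold change was -2.82 ± 0.13 (SE), the 453rd lowest of all tested genes. Marker medians were -0.31 for endothelial cells, a known site of Spns2, -2.33 for neurons and -3.74 for oligodendrocytes, and the part of these cells in the Spns2 difference was not tested.

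**Figure D2:**
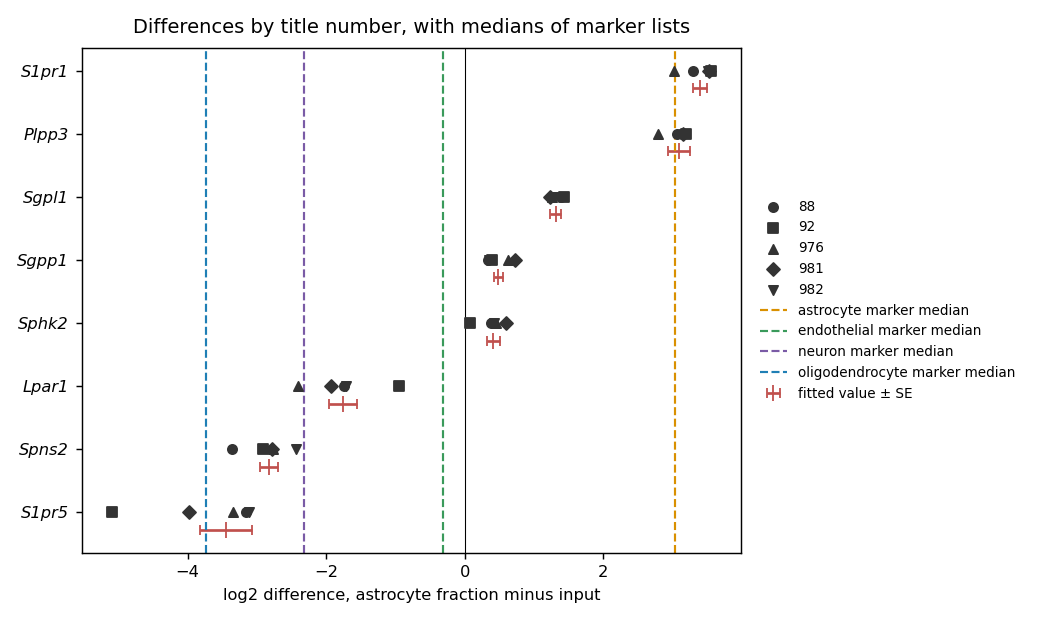
Differences of log2 CPM, astrocyte fraction minus input, of each gene within each title number (black markers) with the fitted log2 fold change and its SE (red); dashed lines are the median log2 fold changes of 4 marker lists. Plpp3 lies at the astrocyte marker median of 3.04, S1pr1 (3.40) above it, S1pr5 near the oligodendrocyte marker median of -3.74, and Sgpl1, Sgpp1 and Sphk2 between the lists.

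Per kilobase of exon (GENCODE M21 exons), the order of the levels changed between the groups. In the astrocyte fraction Plpp3 stood highest at 677 ± 131 CPM per kb and S1pr1 followed at 433 ± 58.8 (SD, n = 5), with ranges that just met. Sgpl1 (11.8 CPM per kb), Sphk2 (11.4) and Sgpp1 (9.64) formed a group of overlapping ranges far below. Lpar1 (3.28 CPM per kb) came next, and Spns2 (1.71) and S1pr5 (1.095), with overlapping ranges, were lowest. In the input Plpp3 (79.2 CPM per kb) and S1pr1 (41.1) were again first, without overlap. S1pr5 (13.5 CPM per kb), Spns2 (12.3), Lpar1 (10.9) and Sphk2 (8.66) followed with overlap between each and the next, and Sgpp1 (6.87) and Sgpl1 (4.67) were lowest. Sgpl1, the lowest of the 8 in the input, was thus above 5 of the other genes in the astrocyte fraction. Spread within a group was larger in the astrocyte fraction for 7 of the 8 genes, with coefficients of variation of 6.74% (Sgpp1) to 44.5% (S1pr5) against 4.27% (Sphk2) to 16.1% (Lpar1) in the input.

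Set against the other members of its family, S1pr1 was nearly the only S1P receptor transcript of the astrocyte fraction. It made up 99.2 ± 0.440% of the summed length-scaled level of the 5 S1P receptor genes there, against 72.6 ± 1.52% in the input (SD, n = 5). S1pr5 made up 0.264 ± 0.138% in the astrocyte fraction and 23.8 ± 0.868% in the input. The LPA receptors showed another make-up. Lpar1 held 43.0 ± 7.57% and Lpar4 43.6 ± 6.87% of the summed level of the 4 measured LPA receptor genes in the astrocyte fraction, against 90.4 ± 1.22% for Lpar1 and 3.34 ± 0.373% for Lpar4 in the input. The summed length-scaled level was 437 ± 57.7 CPM per kb for S1P receptors and 7.59 ± 1.32 for LPA receptors in the astrocyte fraction, against 56.6 ± 3.18 and 11.99 ± 1.81 CPM per kb in the input. Of the lipid phosphate phosphatases, Plpp3 held 98.0 ± 0.969% in the astrocyte fraction and 81.7 ± 2.26% in the input. Sgpp1 held 75.5 ± 4.75% of the level of the 2 S1P phosphatase genes in the astrocyte fraction and 31.8 ± 2.31% in the input, while the summed level of both genes was 12.8 ± 0.624 CPM per kb in the astrocyte fraction and 21.6 ± 2.05 CPM per kb in the input. These shares do not depend on the scaling between libraries, but they do on gene length: without it Sgpp1 held 81.25% in the astrocyte fraction and 39.7% in the input.

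**Figure D3:**
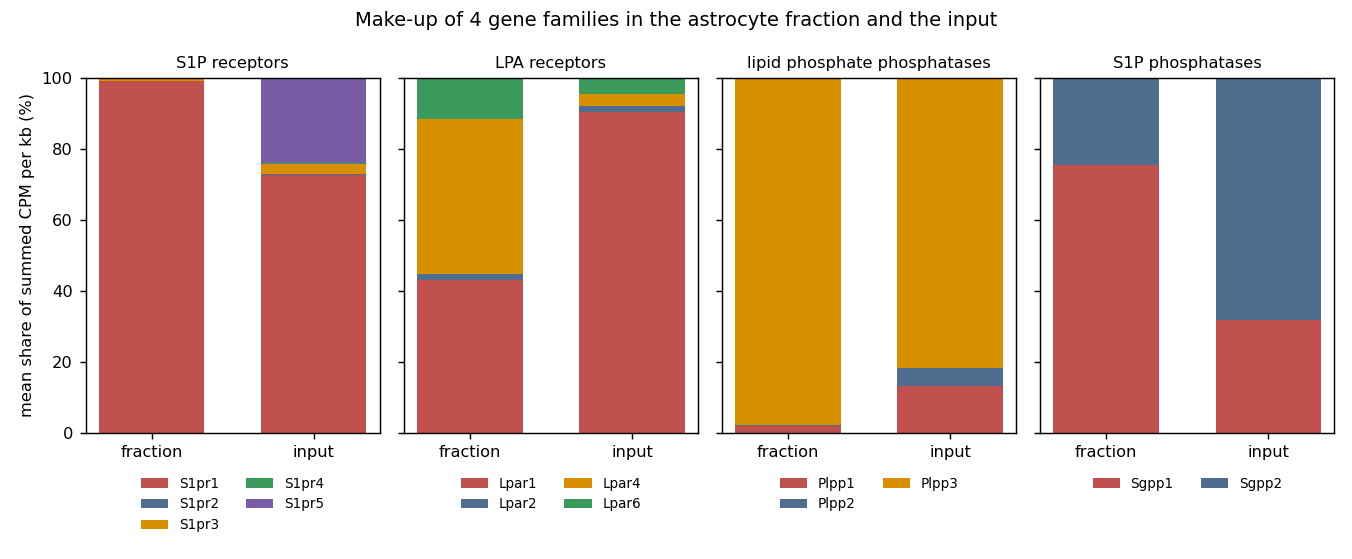
Mean share (percent, over 5 libraries) of each gene in the summed CPM per kb of its family, in the astrocyte fraction (left bar) and the input (right bar). S1pr1 fills 99.2% of the S1P receptor bar in the astrocyte fraction and 72.6% in the input, and Lpar4 fills 43.6% of the LPA receptor bar in the astrocyte fraction and 3.34% in the input.

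The genes whose pattern over the 10 libraries was most like that of S1pr1 were Cldn10, Timp4, Mmd2, Tril and Slc39a12. Likeness was the mean absolute difference of log2(CPM + 0.5), each gene centred on its own mean, among 13381 named genes with a mean of at least 1 CPM, and it was 0.057 for Cldn10 and 0.093 for Slc39a12. Cldn10, which encodes a claudin, was at 315 ± 38.5 CPM in the astrocyte fraction and 29.9 ± 1.39 CPM in the input (SD, n = 5). Timp4, which encodes an inhibitor of metalloproteinases, was at 490 ± 68.5 CPM in the astrocyte fraction and 47.4 ± 3.25 CPM in the input. For S1pr5 the nearest patterns were less close, from 0.145 for Fcgr3 to 0.223 for Trim59, with Siglech, Adamtsl4 and Itgb4 between them. Fcgr3 and Siglech, which encode receptors of microglia, were at 0.444 ± 0.327 and 0.321 ± 0.193 CPM in the astrocyte fraction and at 8.36 ± 0.850 and 8.63 ± 0.926 CPM in the input. Itgb4, which encodes an integrin subunit, was at 2.88 ± 1.07 CPM in the astrocyte fraction and 34.5 ± 3.42 CPM in the input. At such low counts in the astrocyte fraction, likeness rests mainly on the difference between the groups. The 5 genes nearest to S1pr1 had log2 fold changes of 3.215 to 3.394, beside 3.398 for S1pr1. Likeness to S1pr1 thus also reflects the difference between the groups.

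The start regions of 4 genes are shown because these genes lie at both ends of the range, Plpp3 and Sgpl1 with higher and Spns2 and S1pr5 with lower levels in the astrocyte fraction. They are RefSeq promoter windows on GRCm38.p6, 250 bases before to 50 after an annotated start, read 5′ to 3′ on the gene's strand. Such windows were found for 7 of the 8 genes, S1pr1 being the other one. Capitals mark matches, on either strand, to GGGCGG (the GC box), CCAAT (the CCAAT box) or TATAAA (the TATA box), of which none overlaps another.
Plpp3, chr4:105157097-105157396, plus strand: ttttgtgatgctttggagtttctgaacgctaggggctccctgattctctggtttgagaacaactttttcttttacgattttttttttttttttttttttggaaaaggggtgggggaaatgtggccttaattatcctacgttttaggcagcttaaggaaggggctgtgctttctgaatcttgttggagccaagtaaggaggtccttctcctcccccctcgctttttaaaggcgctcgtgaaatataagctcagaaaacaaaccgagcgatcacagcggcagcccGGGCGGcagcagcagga
Sgpl1, chr10:61147635-61147934, minus strand: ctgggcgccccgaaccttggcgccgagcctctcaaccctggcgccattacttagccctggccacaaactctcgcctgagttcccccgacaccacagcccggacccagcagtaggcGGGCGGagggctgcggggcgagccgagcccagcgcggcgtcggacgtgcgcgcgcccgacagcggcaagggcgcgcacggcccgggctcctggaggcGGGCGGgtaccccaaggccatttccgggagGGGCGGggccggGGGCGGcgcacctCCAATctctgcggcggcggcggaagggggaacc
Spns2, chr11:72474978-72475277, minus strand: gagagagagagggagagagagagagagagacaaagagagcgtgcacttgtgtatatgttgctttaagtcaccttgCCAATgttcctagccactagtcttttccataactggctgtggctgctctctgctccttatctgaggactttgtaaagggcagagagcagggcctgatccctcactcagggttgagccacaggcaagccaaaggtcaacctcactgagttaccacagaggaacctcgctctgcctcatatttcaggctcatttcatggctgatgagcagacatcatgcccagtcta
S1pr5, chr9:21248394-21248693, minus strand: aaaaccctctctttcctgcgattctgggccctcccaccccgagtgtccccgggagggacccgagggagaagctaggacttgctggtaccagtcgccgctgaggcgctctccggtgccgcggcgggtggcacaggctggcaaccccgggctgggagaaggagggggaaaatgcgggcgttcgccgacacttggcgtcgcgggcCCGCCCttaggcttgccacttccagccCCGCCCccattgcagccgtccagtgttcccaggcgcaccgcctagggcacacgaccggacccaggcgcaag
Base composition varied widely among the 4 windows. GC content was 46.0% in Plpp3 and 75.3% in Sgpl1, against 50.3% in Spns2 and 69.3% in S1pr5, with 11, 38, 2 and 27 CpG dinucleotides in that order, beside a median of 52.7% and 7 CpG over the 32851 windows of the reference table. GGGCGG was found 1 time in Plpp3, 4 times in Sgpl1, 2 times in S1pr5 and not in Spns2, and it occurs in 35.7% of windows. CCAAT was found 1 time each in Sgpl1 and Spns2 and occurs in 37.4% of windows. TATAAA, which 13.6% of windows hold, was in none of the 4. The Spns2 window lies inside the gene as the deposited table bounds it (72451638 to 72489904), so it belongs to an inner start.

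Beyond the 8 genes, 77 genes of the same pathways were listed by role, of which 70 are in the table and 68 were tested. Of these, 28 rose in the astrocyte fraction, 28 fell and 12 were not called, that is 56 called genes. All calls are from an edgeR quasi-likelihood test that did not use the title number (Benjamini-Hochberg adjusted p under 0.05). Over all tested genes 33.1% rose and 37.5% fell, together 70.6%. The median log2 fold change was -0.04 over the 68 genes and -0.06 over all 17672.

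Among the other receptors, Lpar4, S1pr2 and Lpar6 rose, Gpr34 fell and 3 of 7 were not called. Lpar4, an LPA receptor gene, was at 14.0, 19.1, 9.69, 17.7 and 10.7 CPM in the astrocyte fraction libraries 88, 92, 976, 981 and 982, against 1.99, 1.25, 1.73, 1.54 and 1.98 CPM in the input libraries. The groups stood far apart, and its log2 fold change was 2.99 ± 0.23 (SE, edgeR adjusted p = 8.79e-08), opposite in sign to that of Lpar1. S1pr2, an S1P receptor gene, rose to 5.99 ± 1.03 CPM in the astrocyte fraction, against 2.09 ± 0.521 CPM in the input (SD, n = 5), a log2 fold change of 1.48 ± 0.18 (edgeR adjusted p = 3.47e-05). Lpar6 had a log2 fold change of 0.70 ± 0.25 (edgeR adjusted p = 0.0177) with overlapping groups. That call was lost with library totals (log2 fold change 0.42, adjusted p = 0.141), without the numbers 976 and 982 (0.81, adjusted p = 0.0564) and with the authors' normalized values (0.57, adjusted p = 0.0527). Gpr34, a microglial receptor gene for lysophosphatidylserine, fell by 4.22 on the log2 scale, near the microglia marker median of -4.29. S1pr3 and Sphk1, given here and below, were picked after their values were seen. S1pr3 was at 11.8 and 11.2 CPM in the astrocyte fraction libraries 976 and 982 and at 2.35 to 4.70 CPM in the other 3, against 5.14 to 10.2 CPM in the input, and was not called. Choroid plexus markers were high in the same 2 libraries, and their part in it was not tested.

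**Figure D4:**
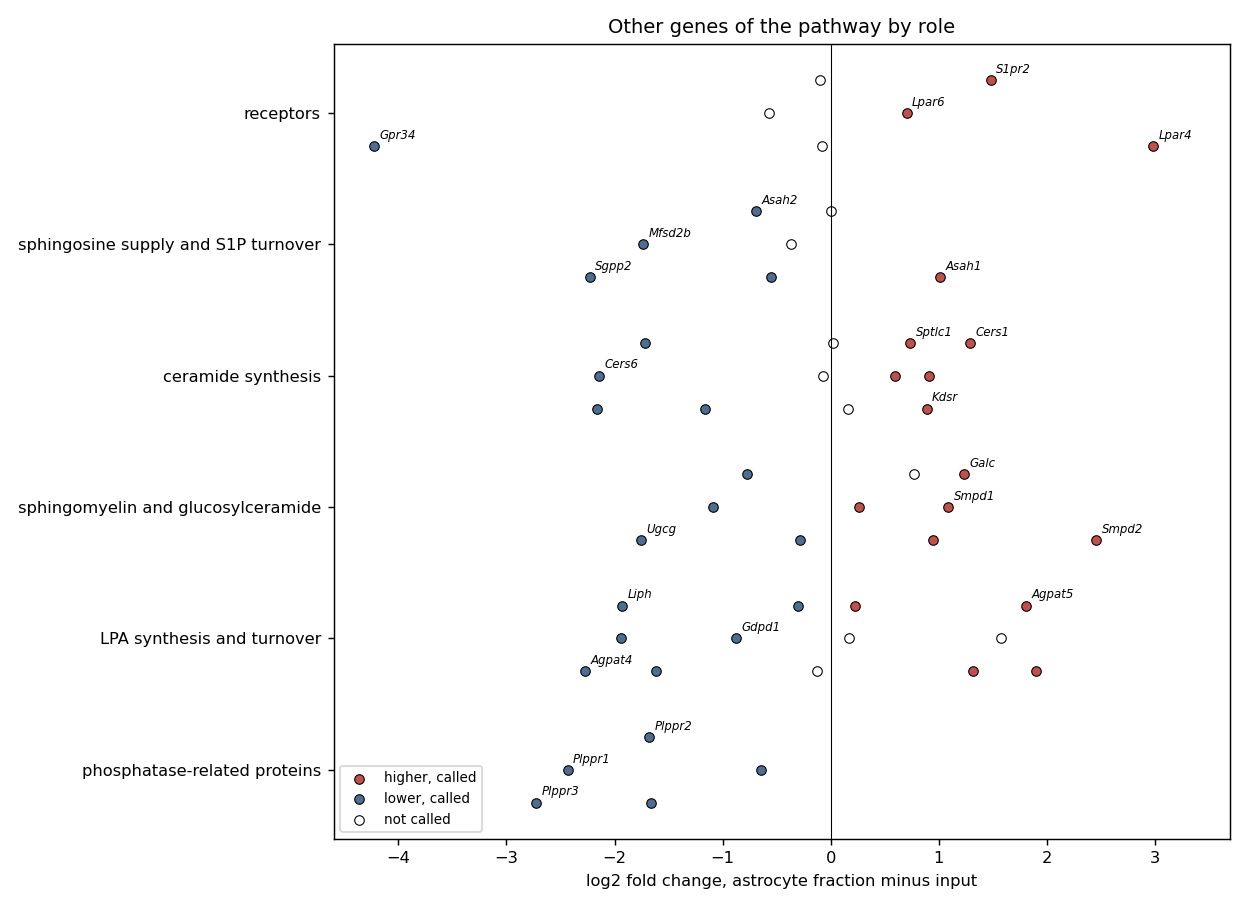
Fitted log2 fold changes, astrocyte fraction minus input, of 54 of the other tested genes in 6 lists by role; red points rose, blue points fell (edgeR adjusted p under 0.05) and open points were not called, with vertical position within a row free of meaning. All 5 phosphatase-related genes lie left of 0, and the other lists have called genes on both sides of it.

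Of the 7 tested genes that supply sphingosine or turn over S1P, 1 rose, 4 fell and 2 were not called (median log2 fold change -0.55). Sgpp2, the second S1P phosphatase gene, was at 9.63, 12.9, 14.1, 10.2 and 16.0 CPM in the astrocyte fraction libraries 88, 92, 976, 981 and 982, against 52.5, 69.8, 56.2, 54.8 and 62.2 CPM in the input libraries. It fell by 2.23 on the log2 scale (SE 0.16, edgeR adjusted p = 2.32e-08), the opposite direction to Sgpp1. Mfsd2b, the gene of the S1P exporter known from red blood cells and platelets, was near the detection limit in the astrocyte fraction (0.233 ± 0.180 CPM, against 1.12 ± 0.1996 CPM in the input) and fell by 1.74. Asah2, a neutral ceramidase gene, fell by 0.69. The exception was Asah1, the lysosomal acid ceramidase that frees sphingosine from ceramide, which rose to 93.2 ± 13.5 CPM in the astrocyte fraction, against 45.8 ± 4.40 CPM in the input (log2 fold change 1.02 ± 0.11, edgeR adjusted p = 1.26e-06). Sphk1, the other sphingosine kinase gene, was low throughout, at 0.513 to 1.18 CPM in 4 astrocyte fraction libraries and 9.34 CPM in library 88, against 1.54 to 3.697 CPM in the input, and was not called.

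Genes of ceramide synthesis went both ways, with 5 of 12 risen, 4 fallen and 3 not called (median log2 fold change 0.09). Kdsr and Sptlc1, which act in the first steps from serine and palmitoyl-CoA, rose by 0.89 and 0.74 on the log2 scale. Other subunit genes of the first enzyme, serine palmitoyltransferase, picked after their values were seen, went both ways, with log2 fold changes of 0.91 for Sptssa, -1.17 for Sptlc2 and -2.16 for Sptssb, all called. Cers1, a ceramide synthase gene, rose by 1.29, but its counts are uncertain. Of its exon bases, 42.5% are shared on its own strand and 2.14% on the opposite strand, with Gdf1 or Upf1. Cers6, another ceramide synthase gene, fell to 6.01 ± 1.16 CPM in the astrocyte fraction, against 27.0 ± 4.08 CPM in the input (SD, n = 5), a log2 fold change of -2.15. Among the genes that make and break sphingomyelin and glycosylceramides, 5 of 10 rose, 4 fell and 1 was not called (median 0.52). The sphingomyelinase genes Smpd2 (2.46) and Smpd1 (1.09) rose, as did Galc (1.23), which encodes the lysosomal galactosylceramidase. Another sphingomyelinase gene, Smpd3, picked after its values were seen, had a log2 fold change of -0.78 and fell. Smpd2 was at 80.6 ± 9.90 CPM in the astrocyte fraction and 14.7 ± 1.33 CPM in the input, with 20.3% of its exon bases shared with Mical1 on the opposite strand. Ugcg, which encodes glucosylceramide synthase, fell by 1.76.

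Of 13 tested genes of LPA synthesis and turnover, 4 rose, 6 fell and 3 were not called (median log2 fold change -0.12). Agpat5, which encodes an enzyme that acylates LPA to phosphatidate, rose to 228 ± 19.7 CPM in the astrocyte fraction, against 65.1 ± 2.99 CPM in the input (log2 fold change 1.81 ± 0.07, edgeR adjusted p = 3.95e-10), with 19.0% of its exon bases shared with a gene model on the opposite strand. Agpat3 (log2 fold change 1.90), Agpat2 (1.32) and Agpat1 (0.225), relatives of Agpat5 picked after their values were seen, also rose. Another relative, Agpat4, fell by 2.27 (SE 0.38), and Gdpd1, a lysophospholipase D gene, fell by 0.88. The phospholipase gene Liph, at 0.276 ± 0.204 CPM in the astrocyte fraction and 1.06 ± 0.191 CPM in the input, fell by 1.93. The 5 Plppr genes, relatives of Plpp3 that lack known phosphatase activity and are known from neurons, all fell (median -1.68). Plppr3 was at 13.4 ± 1.58 CPM in the astrocyte fraction and 90.4 ± 8.02 CPM in the input (log2 fold change -2.73 ± 0.09, edgeR adjusted p = 1.33e-10), and Plppr1 fell by 2.44.

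Enpp2, which encodes autotaxin, was chosen for mention after its values were seen. It was at 69.2, 29.05, 7054, 47.6 and 1430 CPM in the astrocyte fraction libraries 88, 92, 976, 981 and 982, against 255, 239, 1682, 244 and 482 CPM in the input libraries. In the numbers 976 and 982, where choroid plexus markers were high, it was higher in the astrocyte fraction than in the input, and in the other 3 it was lower. It was not called over the 10 libraries (log2 fold change 1.57 ± 1.65, edgeR adjusted p = 0.381). Without the numbers 976 and 982 it had a log2 fold change of -2.21 (edgeR adjusted p = 0.000143), in a fit blocked by title number -0.86 (adjusted p = 0.625), and with the astrocyte fraction library 976 alone left out -0.46 (adjusted p = 0.781).

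Of 7 tested genes of G protein alpha subunits, which relay these receptors inside the cell, 6 rose and 1, Gnai1, fell. Gna12 (log2 fold change 1.43), Gna11 (0.49) and Gnaq (0.34) rose, these 3 picked after their values were seen. Gna13, which encodes another alpha subunit, was at 458, 404, 329, 533 and 398 CPM in the astrocyte fraction libraries 88, 92, 976, 981 and 982, against 63.6, 61.7, 53.8, 67.7 and 54.4 CPM in the input libraries. The groups stood far apart, and its log2 fold change was 2.82 ± 0.13 (SE, edgeR adjusted p = 6.79e-10). The 3 genes of inhibitory G protein subunits, through which S1pr1 signals, did not move together. Gnai2 rose to 813 ± 60.8 CPM in the astrocyte fraction, against 217 ± 14.5 CPM in the input (log2 fold change 1.91 ± 0.07), and Gnai3 rose by 1.74. Gnai1 fell to 26.4 ± 4.35 CPM in the astrocyte fraction, against 129 ± 11.7 CPM in the input (log2 fold change -2.28 ± 0.12, edgeR adjusted p = 2.05e-09).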

How the data were processed

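The authors deposited 1 table of 18464 genes that holds, per library, an estimated (expected) count per gene and a normalized log2 value. Per the file headers the expected counts are raw, and the deposited normalized log2 values have an input median of 0 for each of the 18464 genes, within 0.001. CASAVA 1.8, DESeq and the build mm10 appear in the submitters' processing notes, without a role. Aligner, counter and strand setting: not given in the sources used here. The deposited table had been filtered, since every gene reaches 5 counts in each library of at least 1 group.

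Expected counts were rounded to whole numbers. The whole table was tested in R 4.3.3 with edgeR 4.0.16 (TMM scaling, robust quasi-likelihood test, a filterByExpr minimum count of 10 that kept 17672 genes and removed 792, Benjamini-Hochberg adjusted p under 0.05). Of these genes, 5858 rose and 6625 fell. CPM uses the TMM-scaled library size. Log2 fold changes (astrocyte fraction over input, prior count 2) are edgeR's, and their SE comes from the log2 CPM of the 5 libraries of each group. The alternatives used DESeq2 1.42.0 and limma 3.58.1. Exon lengths and overlaps are from GENCODE M21.

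The 8 genes and the gene lists were chosen with earlier results of these data known. Named pathway genes are, per list, up to 3 called genes with the smallest adjusted p in the more frequent direction and 1 in the other. Of the 7 pathway lists, 1 is not reported here on its own, and its genes are part of the totals over the lists. Depth was 3845554 to 30878894 expected counts per library, and 3 counts correspond to 0.0912 to 0.136 CPM, or 0.880 CPM in the astrocyte fraction library 92. After removal of group means, libraries with the same title number had correlations of 0.254 to 0.567, against a mean of -0.097 for different numbers. The number 982 correlated more with another number (0.368) than with its own (0.265). All 5 exceeded the threshold of 0.1 set for pairing, but so did the highest correlations with another number (0.111 to 0.368). That threshold therefore does not separate pairs from other libraries, and the pairing rests on the shared numbers. A fit with the number as a block was run as an alternative.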

Additional observations from a re-analysis of the deposited data

Results flagged for a closer look

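Within the groups of 5 libraries, 42 genes (the 8 genes, their families and the named pathway genes) were searched for a single library far from the other 4 (Dixon's test on log2 CPM, critical ratio 0.71), which chance gives in about 1 in 20 groups. Of 84 groups, 5 held such a library. S1pr1 was at 112 CPM in the input library 982, against 126.0 to 131.5 CPM in the other 4 input libraries. Sphk1 was at 9.34 CPM in the astrocyte fraction library 88, against 0.513 to 1.18 CPM in the other 4. Plppr1 was at 0.293 CPM in the shallow astrocyte fraction library 92, against 1.22 to 2.08 CPM in the others. In the input, Kdsr was at 30.97 CPM in library 92, against 28.1 to 28.6 CPM in the others, and Mfsd2b was at 0.779 CPM in library 982, against 1.12 to 1.27 CPM in the others.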

How the results depend on the processing

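Every alternative kept the 5 higher and 3 lower directions of the 8 genes and kept the counts called over all genes and over the pathway genes within 1.5 times. With the title number as a replicate block, 5885 genes rose and 6843 fell, of the other pathway genes 28 rose and 28 fell, and no gene named by the rule lost its call. Leaving out 1 library at a time gave 28 higher and 28 to 30 lower pathway genes. Scaling to library totals gave 24 higher and 32 lower pathway genes, and it moved the share of higher genes among all called genes to 34.0%, against 46.9% with TMM scaling. It also lowered S1pr1 to 3.11, Plpp3 to 2.80 and Sgpl1 to 1.03 on the log2 scale. Without the numbers 976 and 982, 27 pathway genes rose and 28 fell, and with the authors' normalized values 27 rose and 29 fell. The receptor list had 2 lower genes in place of 1 with library totals, no filter, the authors' normalized values, without library 976 of the astrocyte fraction, or without the numbers 976 and 982. DESeq2 size factors, the DESeq2 Wald test and the absence of a filter gave 28 higher and 28 to 30 lower pathway genes. The alternatives for the family shares and for Enpp2 were chosen after seeing the data. Enpp2, not called, changed sign in 4 alternatives: to -0.86 with the replicate block, -0.76 with the authors' normalized values and -2.21 without the numbers 976 and 982, and its range with 1 library left out was -0.46 to 2.50. The cause was not tested. Depth limits the low receptor genes in the astrocyte fraction library 92.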
